A study of Mus musculus with 8 samples.

Results

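The genes described here are 10 that act together in the shedding of the outer skin layer: the 8 kallikreins *Klk5*, *Klk6*, *Klk7*, *Klk8*, *Klk10*, *Klk11*, *Klk13* and *Klk14*, the inhibitor gene *Spink5* and the matriptase gene *St14*. They were chosen by name for this shared role, with earlier results of these data known. All 10 were listed among the 22740 genes of the count table. All 10 were also among the 15163 genes that passed the filter on low counts. RNA was sequenced from pieces of whole skin of female BALB/c mice, with 2 mice in each of 4 groups and 1 library per mouse. All mice ate a low-fibre diet. Their age was given as 6 to 8 weeks, which the paper states for the mice of the allergen model. An age at skin collection was not given for each group. CTL mice drank plain water, and butyrate mice drank water with 400 mM sodium butyrate, a short-chain fatty acid. Baseline skin came from mice that had received no allergen, after 2 weeks of the water treatment. Lesional skin came from mice that had also received 4 exposures of 15 µg house dust mite (HDM) extract each, placed on shaved back skin over a further 2 weeks while the water treatment went on. Lesional and baseline skin therefore differed in allergen, handling and time of collection, and these cannot be told apart. The comparisons ask how the shedding machinery differs between inflamed and untouched skin, and whether butyrate in the drinking water changes it.

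Kallikreins are secreted serine proteases made by the upper living layers of the epidermis. In the stratum corneum they cut corneodesmosomes, the protein rivets between dead cells, so that the surface can shed. KLK5 can activate itself and other kallikreins, and KLK7 cuts corneodesmosin and desmocollin 1. SPINK5 encodes LEKTI, a multi-domain inhibitor that holds kallikreins in check, and its loss in people causes Netherton syndrome, with excessive shedding and a leaky barrier. Matriptase, the product of *St14*, is a membrane-bound protease that activates other proteases of the epidermis.

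The 8 kallikrein genes lay on the plus strand of mouse chromosome 7 (GRCm38, GENCODE annotation), between positions 43690418 and 43851181, a stretch of 160.8 kb. Their order along it was *Klk14*, *Klk13*, *Klk11*, *Klk10*, *Klk8*, *Klk7*, *Klk6* and *Klk5*. All 8 had at least 1 promoter window of 300 bases in RefSeq's table for GRCm38.p6, and *Spink5* and *St14* had none there. The start regions of the 3 genes that rose in lesional CTL skin, and of *Klk5*, whose lesional values lay under the baseline ones, are shown because these 4 carry the contrast within the cluster. Each run holds the 150 bases before the RefSeq start site in lower case and the base at that site in capitals, on the plus strand of chromosome 7. The runs lie at 43690268 to 43690418 for *Klk14*, 43712417 to 43712567 for *Klk13*, 43824394 to 43824544 for *Klk6* and 43842119 to 43842269 for *Klk5*. GENCODE places the start of *Klk6* 45 bases and that of *Klk5* 298 bases before the RefSeq site. The *Klk5* run therefore lies inside the gene as GENCODE places it. *Klk6* had another RefSeq window, with its start site 951 bases past the GENCODE start.
Klk14: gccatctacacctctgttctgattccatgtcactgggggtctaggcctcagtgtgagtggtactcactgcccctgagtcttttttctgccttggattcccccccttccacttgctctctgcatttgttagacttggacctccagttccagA
Klk13: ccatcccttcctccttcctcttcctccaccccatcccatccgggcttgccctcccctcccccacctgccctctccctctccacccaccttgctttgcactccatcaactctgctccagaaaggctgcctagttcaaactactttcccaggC
Klk6: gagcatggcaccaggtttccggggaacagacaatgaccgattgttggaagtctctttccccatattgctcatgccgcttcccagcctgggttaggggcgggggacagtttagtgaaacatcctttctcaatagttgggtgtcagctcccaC
Klk5: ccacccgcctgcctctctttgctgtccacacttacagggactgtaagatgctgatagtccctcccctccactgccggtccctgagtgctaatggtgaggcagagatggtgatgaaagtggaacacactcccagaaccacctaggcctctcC

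None of the 10 windows of the 8 kallikreins held TGANTCA (AP-1), AACCGGTT (grainyhead-like) or CACACCC (Krüppel-like), searched on both strands. Among all 32851 windows of that length, 7.81% held the first, 0.146% the second and 7.95% the last. The letters were absent from these windows, and nothing about the factors was read from that. In the window nearest each gene's start, GC content ran from 52.0% in *Klk7* and *Klk14* to 65.3% in *Klk8*, beside a median of 52.7% over all windows. *Klk8* held 23 CpG pairs there and *Klk14* held 0, beside a median of 7.

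The libraries held 18004136 to 21085544 counts each. The library baseline butyrate replicate 3 stood apart from the other 7. Its 15 listed hair follicle markers summed to 21348 CPM (counts scaled to a common library size, the unit used throughout) with none at 0, against 10.9 to 19.4 CPM in the other libraries, where 1 to 4 of the 15 were at 0. Its suprabasal keratinocyte markers summed to 2909 CPM, against 15248 to 16116 CPM in the other baseline libraries, and its skeletal muscle markers to 9389 CPM against 37155 to 45166 CPM. It differed by more than 2-fold from its pair in 26.0% of genes with a mean of at least 1 CPM, and the pairs of the other groups did so in 1.18% to 4.40%. The calls are therefore given with and without this library, and so are the values it moved. The labelled tissue, skin, showed in the basal keratinocyte markers, which summed to 8081 to 13552 CPM in the 8 libraries.

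In untouched CTL skin the members spanned a wide range of levels. Per kilobase of exon, *Spink5* stood at 168 and 131 CPM/kb in the 2 mice and *Klk7*, the chymotrypsin-like protease, at 147 and 130 CPM/kb, so the levels of these 2 genes overlapped. *Klk5* came next, at 72.3 and 66.6 CPM/kb. *Klk10* (48.3 and 33.3 CPM/kb) and *Klk11* (36.6 and 33.1 CPM/kb) overlapped, *Klk8* lay at 21.7 and 20.2, *St14* at 11.9 and 11.1, and *Klk6* at 8.37 and 7.23 CPM/kb. *Klk13* and *Klk14* were close to silent, at 0.218 and 0.387 and at 0.175 and 0.437 CPM/kb, which came from 9 and 16 and from 4 and 10 counts. In lesional CTL skin the order of the mean levels per kilobase was *Klk7* (308), *Klk6* (117), *Klk10* (110), *Spink5* (94.7), *Klk11* (43.1), *Klk8* (37.2), *Klk5* (31.2), *Klk13* (19.4), *St14* (12.1) and *Klk14* (5.42 CPM/kb). There *Klk6* moved up beside *Klk10* and *Klk5* moved down beside *Klk8*; within each of these pairs the values of the mice overlapped.

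**Figure D1:**
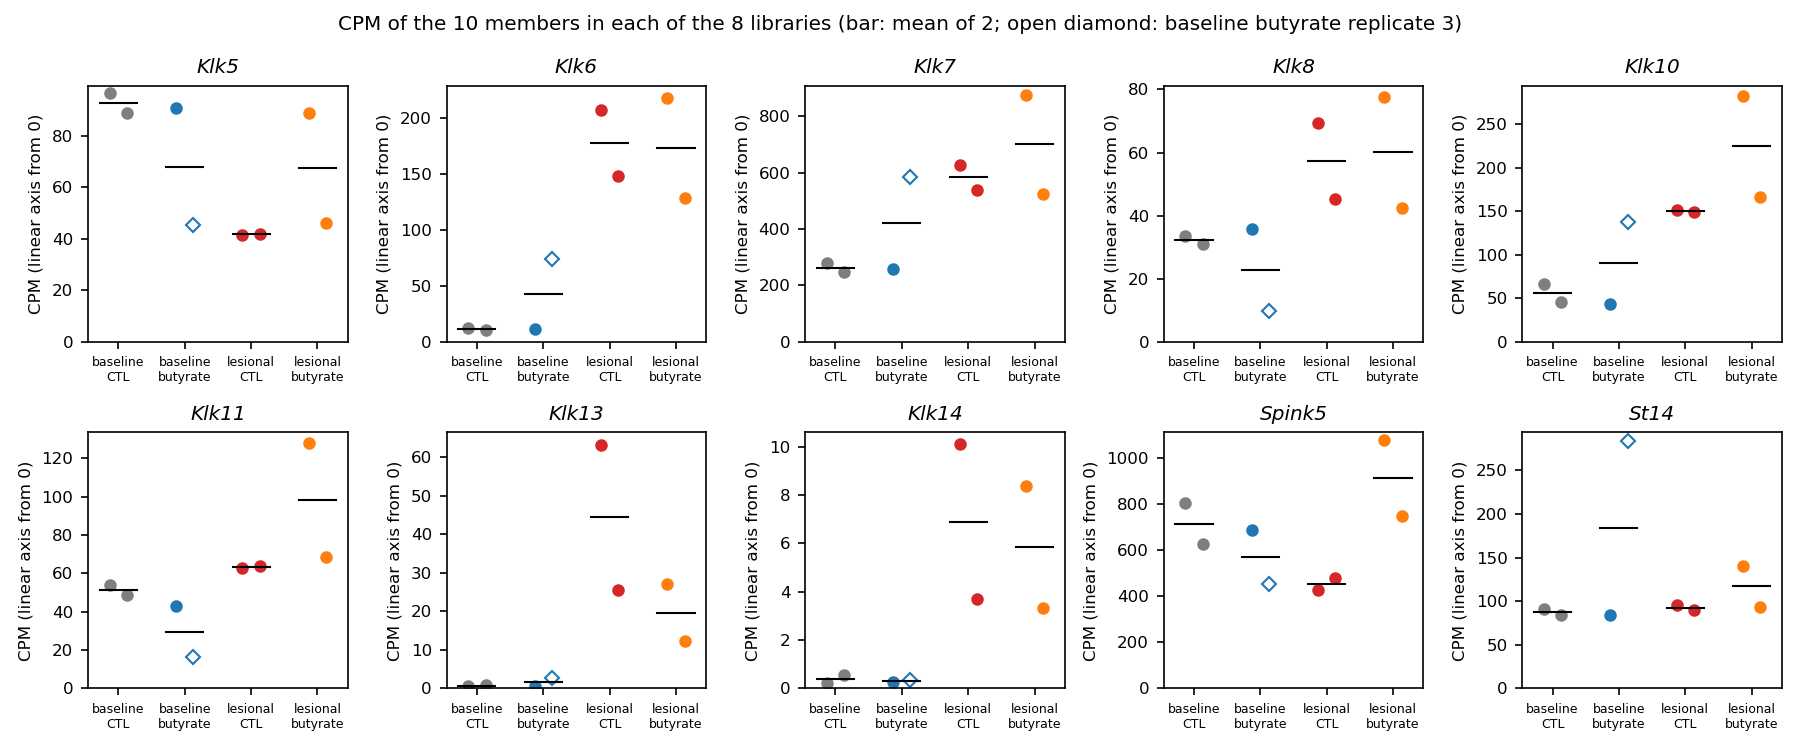
CPM of each of the 10 genes in the 8 libraries on linear axes that start at 0, by group, with a bar at the mean of 2 mice. *Klk6*, *Klk13* and *Klk14* are low in baseline CTL skin and higher in both lesional groups, *Klk5* is lower in lesional than in baseline CTL skin, and the open diamond, baseline butyrate replicate 3, lies far from its pair for most genes.

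In CTL mice, lesional skin held more transcript of 3 kallikreins than baseline skin. A gene was called at an adjusted p below 0.1 and a fold change above 2 in edgeR's quasi-likelihood test over all 8 libraries. *Klk6*, *Klk13* and *Klk14*, all genes of trypsin-like proteases, rose, and no member fell. This was 3 of 10 members, all higher, beside 2.37% of all genes called higher, 1.21% called lower and 3.58% called in all. Of the 3, *Klk14* passed the low-count filter only through the lesional libraries, where it was high, so its direction was tied to the filter. The 2 groups did not overlap for 9 of 10 members, which is to be read beside 75.2% of all genes. The members' median log2 difference was 0.99, and that of all genes -0.02. limma-voom called 2 of the 3, *Klk6* and *Klk13*, beside 578 genes in all. Leaving out any 1 of the 6 libraries other than the baseline butyrate pair (CTL replicates 1, 2, 4 and 5, lesional butyrate replicates 3 and 4) left 0 members called, with every log2 change in the same direction. The number of all genes called, 543 with all 8 libraries, also moved when 1 library was left out, and its range is given at the end. In whole skin, more or fewer cells of a type and more or less RNA per cell cannot be told apart.

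*Klk13* was at 0.50 and 0.888 CPM in baseline CTL skin and at 63.3 and 25.6 CPM in lesional CTL skin. Both lesional values lay far above both baseline values, and the lesional mice themselves lay 2.47-fold apart. The log2 fold change was 5.99 ± 0.91 (SE), a 63.4-fold rise (adjusted p = 0.0412). *Klk14*, whose protease activates other kallikreins, was at 0.222 and 0.555 CPM in baseline and 10.1 and 3.69 CPM in lesional CTL skin. Its log2 fold change was 4.12 ± 0.80 (adjusted p = 0.0676), with 4 and 10 counts behind the baseline values. *Klk6*, better known from myelin turnover in the nervous system and also made in skin, was at 12.7 and 10.9 CPM in baseline and at 207 and 148 CPM in lesional CTL skin. Both lesional values were more than 10 times the baseline ones, with a log2 fold change of 3.91 ± 0.87 (adjusted p = 0.0882).

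The kallikreins with the best known part in shedding moved less and in opposite directions. *Klk7* was at 279 and 246 CPM in baseline and 627 and 540 CPM in lesional CTL skin, a log2 difference of 1.15 ± 0.43 (adjusted p = 0.221). *Klk5* was at 96.6 and 88.9 CPM in baseline and 41.7 and 41.8 CPM in lesional CTL skin, a log2 difference of -1.15 ± 0.41 (adjusted p = 0.205). All 4 lesional and baseline values of each gene were separate, but neither gene was called in the test over 8 libraries. *Klk10*, first described as a gene of normal epithelial cells, was at 66.4 and 45.7 CPM in baseline and 152 and 149 CPM in lesional CTL skin, a log2 difference of 1.42 ± 0.55 (adjusted p = 0.231).

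Without baseline butyrate replicate 3, the same test called 6 members in this comparison: *Klk6*, *Klk7*, *Klk10*, *Klk13* and *Klk14* higher and *Klk5* lower. That was beside 6.33% of all genes called higher and 6.12% called lower. The log2 fold changes of the 6 hardly moved, and the standard errors were smaller for all of them but *Klk14* (0.84 against 0.80): *Klk7* rose by 1.15 ± 0.25 (adjusted p = 0.0227), *Klk10* rose by 1.42 ± 0.28 (adjusted p = 0.0181) and *Klk5* fell by 1.15 ± 0.29 on the log2 scale (adjusted p = 0.0336). The library left out was in neither group of this comparison; without it 15349 genes passed the filter, against 15163 with it.

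The other members differed less. *Klk8*, the gene of neuropsin, was at 33.5 and 31.1 CPM in baseline and 69.2 and 45.4 CPM in lesional CTL skin (log2 difference 0.83 ± 0.60, adjusted p = 0.461). *Klk11* was at 53.7 and 48.5 CPM and at 62.6 and 64.0 CPM (0.31 ± 0.48, adjusted p = 0.735). *St14* was at 91.0 and 84.5 CPM and at 95.8 and 89.3 CPM, with overlapping groups and a log2 difference of 0.08 ± 0.52 (adjusted p = 0.947). None of these 3 was called without baseline butyrate replicate 3, with adjusted p-values of 0.105, 0.432 and 0.783.

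*Spink5*, on chromosome 18 from 43963235 to 44022501, was at 805 and 625 CPM in baseline and 426 and 480 CPM in lesional CTL skin. Both lesional values lay under both baseline values, with a log2 difference of -0.66 ± 0.30 (adjusted p = 0.284). Without baseline butyrate replicate 3 the adjusted p was 0.0719, but at 1.58-fold the difference stayed under the 2-fold needed for a call.

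**Figure D2:**
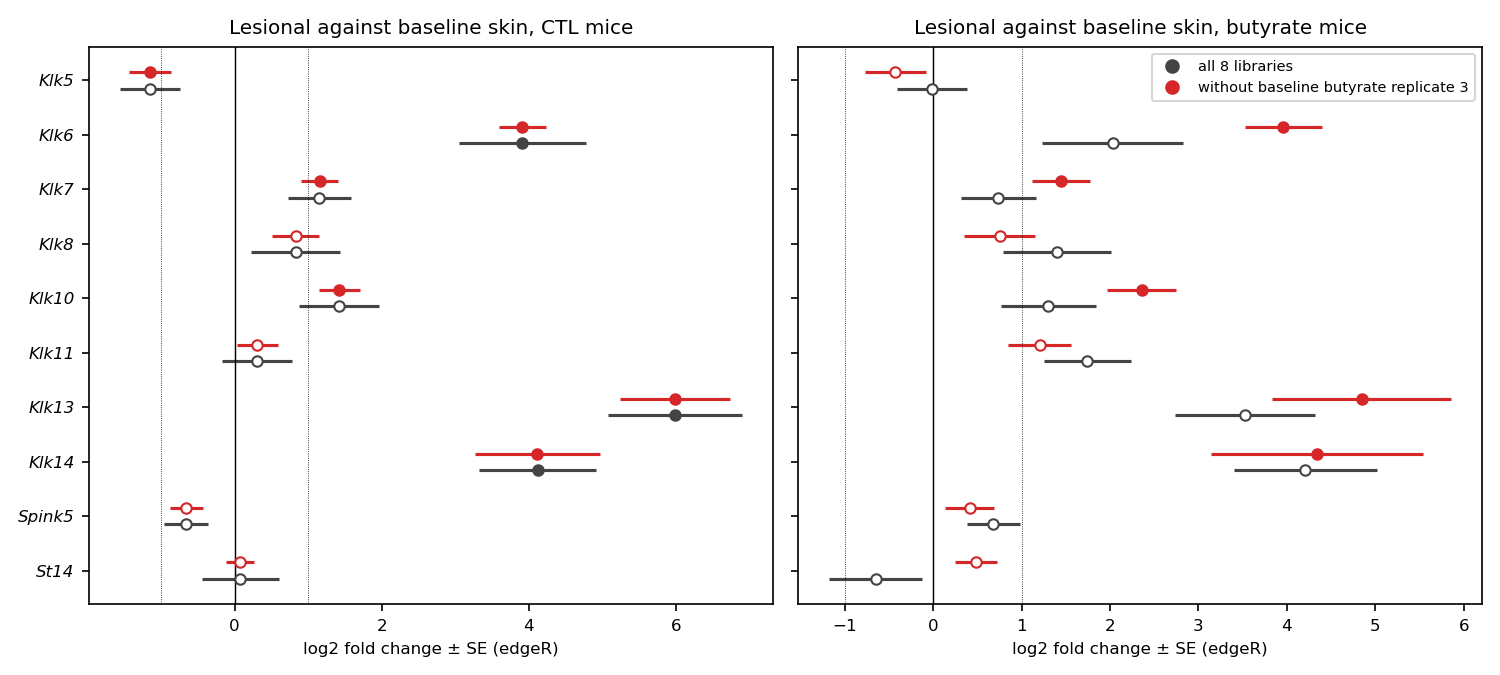
Log2 fold change ± SE of the 10 genes, lesional against baseline skin, in CTL mice (left) and butyrate mice (right), from edgeR over all 8 libraries (grey) and without baseline butyrate replicate 3 (red); filled points passed the call, and dotted lines mark a 2-fold change. In CTL mice the estimates coincide and the bars are shorter for all but *Klk14* without that library, and in butyrate mice the estimates themselves move, *Klk6* from 2.03 to 3.96.

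In butyrate mice the same comparison called 0 of 10 members over all 8 libraries, beside 0.35% of all genes (0.277% higher and 0.0725% lower), and 4 members had an unadjusted p below 0.05, beside 1993 of the 15163 genes. DESeq2 called 4 members here, beside 698 genes in all, and limma-voom 0, beside 42. For 7 members the groups did not overlap, all higher in lesional skin, beside 32.5% of all genes. Without baseline butyrate replicate 3 the edgeR test called 5 members higher, beside 2.5% of all genes called higher and 3.44% called lower, with the single baseline butyrate mouse assumed to vary like the other groups. The 5 were *Klk6*, *Klk7*, *Klk10*, *Klk13* and *Klk14*. The CTL and butyrate comparisons use separate mice, but they share the estimate of the spread.

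*Klk13* was at 0.676 CPM in baseline butyrate replicate 1, at 2.67 CPM in replicate 3, and at 27.0 and 12.2 CPM in lesional butyrate skin. Its log2 difference was 3.53 ± 0.80 (adjusted p = 0.198) over all libraries and 4.84 ± 1.01 (adjusted p = 0.0611) without that replicate. *Klk14* was at 0.282 and 0.333 CPM in baseline and 8.35 and 3.30 CPM in lesional butyrate skin, a log2 difference of 4.21 ± 0.81 (adjusted p = 0.167), so here the baseline pair agreed. *Klk6* was at 11.2 and 73.7 CPM in baseline and at 218 and 129 CPM in lesional butyrate skin, and the gap between the 2 baseline mice was 6.56-fold. Its log2 difference was 2.03 ± 0.80 (adjusted p = 0.361), and 3.96 ± 0.43 (adjusted p = 0.0237) against replicate 1 alone.

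*Klk7* was at 258 and 584 CPM in baseline and 876 and 525 CPM in lesional butyrate skin, overlapping. *Klk10* was at 43.9 and 138 CPM and at 282 and 167 CPM. Against baseline replicate 1 alone, *Klk7* rose by 1.44 ± 0.33 (adjusted p = 0.0662) and *Klk10* rose by 2.36 ± 0.38 on the log2 scale (adjusted p = 0.0421). *Klk11* was at 42.7 and 16.1 CPM in baseline and 128 and 68.7 CPM in lesional butyrate skin, with a log2 difference of 1.74 ± 0.49 over all libraries (adjusted p = 0.271) and 1.20 ± 0.35 without replicate 3 (adjusted p = 0.101). *Klk5* was at 90.7 and 45.4 CPM and at 88.8 and 46.1 CPM, so both butyrate groups spanned nearly the same range. Without replicate 3 its log2 difference was -0.43 ± 0.34 (adjusted p = 0.45). *Klk8* was at 35.7 and 9.86 CPM in baseline and 77.7 and 42.4 CPM in lesional butyrate skin (2.64-fold, adjusted p = 0.397), and 1.68-fold (adjusted p = 0.277) without replicate 3.

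Within lesional skin, butyrate against CTL called none of the 10 members, beside 0% of all genes, and 1 member had an unadjusted p below 0.05, *Spink5*. limma-voom and DESeq2 also called 0 members. Of all genes, 734 had an unadjusted p below 0.05, limma-voom called 1 gene and DESeq2 124. The groups did not overlap for 4 members, all higher with butyrate, beside 44.9% of all genes. The members' median log2 difference was 0.30 and that of all genes -0.01.

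*Spink5* was at 1077 and 746 CPM in lesional butyrate skin, against 426 and 480 CPM in lesional CTL skin. Both butyrate mice lay above both CTL mice, and the log2 difference was 1.01 ± 0.30, a 2.01-fold level (adjusted p = 0.851). Without baseline butyrate replicate 3 the estimate was the same, 1.01 ± 0.22, with an adjusted p of 0.121. *Klk5* was at 88.8 and 46.1 CPM with butyrate and 41.7 and 41.8 CPM without (0.69 ± 0.40), *Klk10* at 282 and 167 against 152 and 149 CPM (0.58 ± 0.54), and *Klk11* at 128 and 68.7 against 62.6 and 64.0 CPM (0.64 ± 0.48). Their adjusted p was 1.00 in each case, and 0.343, 0.415 and 0.356 without baseline butyrate replicate 3. In all 4 genes the higher value belonged to lesional butyrate replicate 3.

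*Klk13* pointed the other way, at 27.0 and 12.2 CPM with butyrate and 63.3 and 25.6 CPM without, and the groups overlapped (log2 difference -1.18 ± 0.70, adjusted p = 1.00). *Klk6*, *Klk7*, *Klk8*, *Klk14* and *St14* overlapped too, with log2 differences between -0.24 and 0.34. Lesional butyrate replicate 3 had the higher value of its pair for all 10 members, by 1.44-fold for *Spink5* to 2.48-fold for *Klk14*. Its fibroblast markers summed to 3309 CPM, against 8403 CPM in lesional butyrate replicate 4, its suprabasal keratinocyte markers to 13199 against 10298 CPM, and its basal keratinocyte markers to 13497 against 13552 CPM. The part of tissue make-up in these differences was not tested.

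In baseline skin, butyrate against CTL called 0 of 10 members, beside 0% of all genes, and 0 members had an unadjusted p below 0.05. limma-voom and DESeq2 also called 0. The groups did not overlap for *Klk11* only, lower with butyrate, beside 29.7% of all genes. Baseline butyrate replicate 3 was the outlying value in most genes: *St14* was at 283 CPM against 83.8 to 91.0 CPM in the other 3 baseline mice, and *Klk8* at 9.86 CPM against 31.1 to 35.7 CPM. Without it the log2 differences of the 10 members ran from -0.46 (*Klk14*) to 0.15 (*Klk8*). With baseline butyrate replicate 1 left out instead, so that replicate 3 alone stood for its group, 7 members were called in this comparison, beside 24.1% of all genes, and 7 in the difference of the butyrate effects, beside 20.9%. The difference between the butyrate effects in lesional and baseline skin was called for 0 members, beside 0% of all genes, and 1 member, *Spink5*, had an unadjusted p below 0.05.

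The make-up of the kallikrein transcripts differed between baseline and lesional libraries. *Klk7* supplied 50.9% to 53.4% of the summed CPM of the 8 kallikreins in 7 libraries, baseline and lesional, and 67.1% in baseline butyrate replicate 3. *Klk5*, the gene of the protease that starts the activation cascade, supplied 17.8% to 18.8% in the baseline CTL mice and in baseline butyrate replicate 1. It supplied 3.38% to 5.20% in the 4 lesional mice, which did not overlap with those 3, and 5.22% in baseline butyrate replicate 3. *Klk6* supplied 2.31% to 2.34% in the same 3 baseline mice, 12.8% to 16.8% in the lesional mice and 8.48% in baseline butyrate replicate 3. These shares are of CPM, not per length, and are given as a description.

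**Figure D3:**
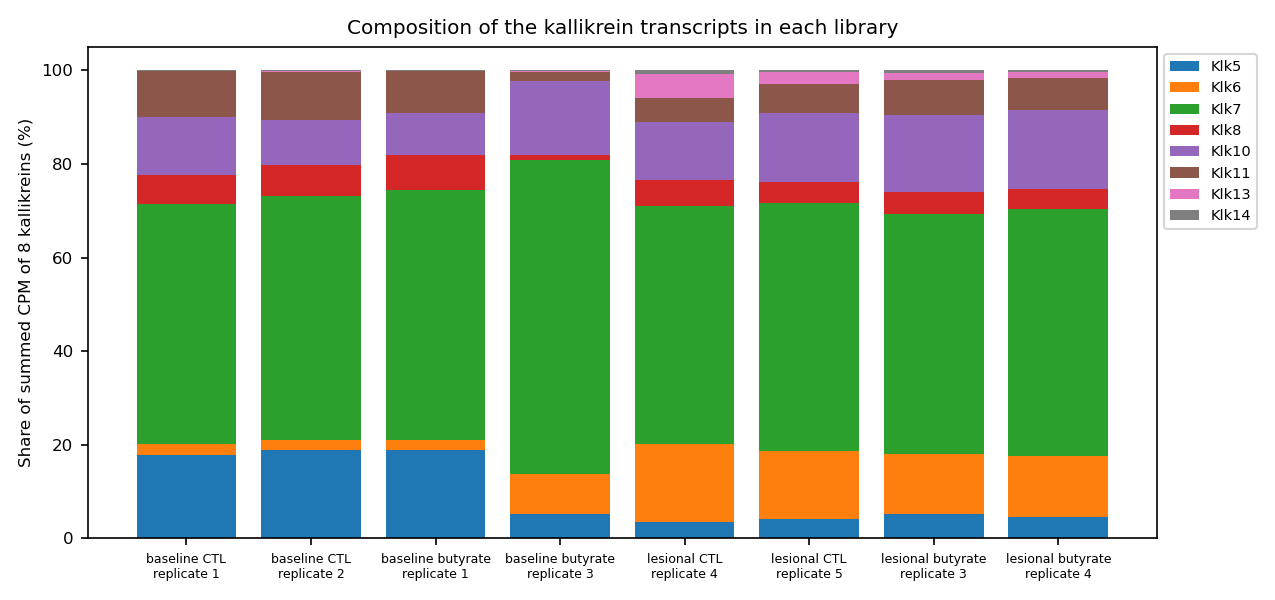
Share of each kallikrein in the summed CPM of the 8 kallikreins, 1 stacked bar per library. *Klk7* holds about the same share in 7 of the 8 bars, and in the 4 lesional libraries the *Klk5* part is thinner and the *Klk6* part thicker than in the baseline CTL libraries.

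The ratio of the summed kallikrein CPM to *Spink5* CPM within a library set protease against inhibitor transcript. It was 0.674 and 0.757 in baseline CTL skin and 2.89 and 2.12 in lesional CTL skin, so the pairs were apart. In lesional butyrate skin it was 1.58 and 1.33, above the baseline CTL mice and under the lesional CTL mice. The kallikrein sums there were 1706 and 993 CPM, against 1233 and 1018 CPM in lesional CTL skin, and overlapped. *Spink5* was at 1077 and 746 CPM against 426 and 480 CPM, and did not overlap. In baseline butyrate skin the ratio was 0.704 in replicate 1 and 1.93 in replicate 3. With 2 mice per group an exact two-sided permutation test cannot go below p = 0.333, so the order of the groups is a description. The ratio is of CPM, not per length. The exons of *Spink5* cover 4785 bases, and those of the kallikreins 1271 (*Klk14*) to 2297 (*Klk13*) bases. The size of the ratio therefore does not show whether kallikrein or *Spink5* transcripts were more numerous in a library. The ratio is also of transcripts, not of protease activity. The ratio of *Klk7* to *Klk5* was 2.77 to 2.88 in the baseline CTL mice and in baseline butyrate replicate 1, 9.87 to 15.0 in the lesional mice, and 12.9 in baseline butyrate replicate 3.

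**Figure D4:**
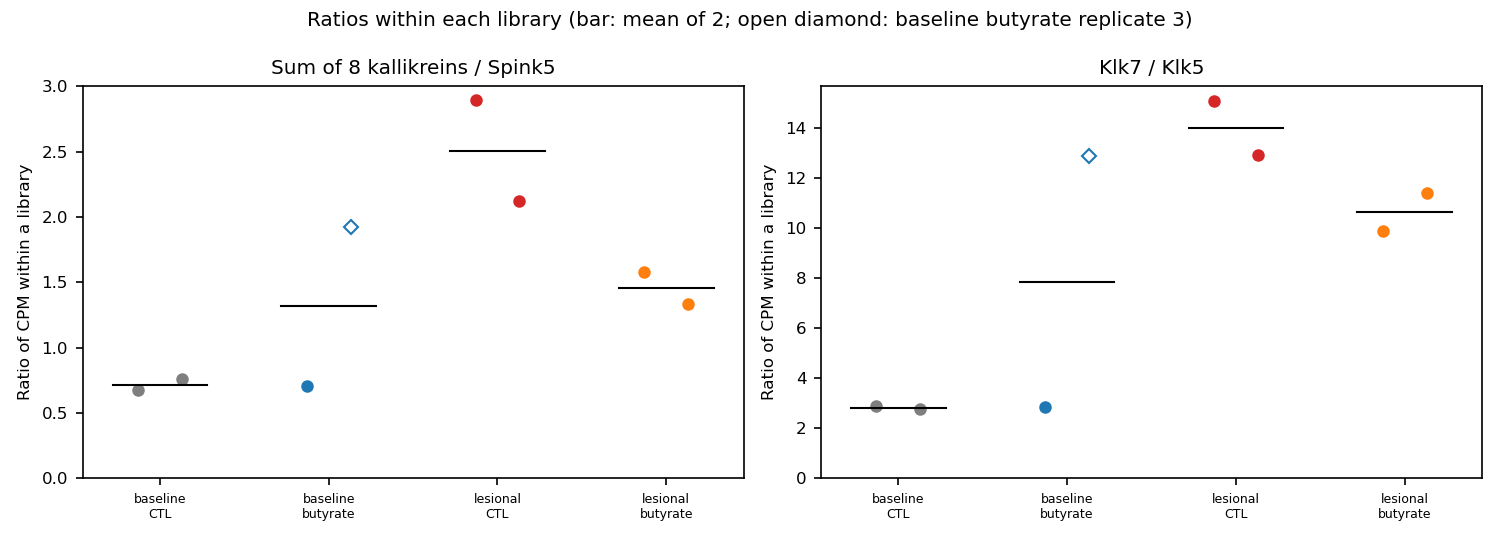
Ratio of the summed CPM of 8 kallikreins to *Spink5* CPM (left) and of *Klk7* to *Klk5* CPM (right) within each library, on linear axes from 0, with a bar at the mean of 2 mice. The kallikrein to *Spink5* ratio is highest in lesional CTL skin (2.89 and 2.12) and lies between the CTL groups in lesional butyrate skin (1.58 and 1.33). The kallikrein sums themselves overlap between the lesional groups.

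Markers of keratinocyte states and of neutrophils moved in the same comparisons. The counts called in CTL mice are to be read beside 2.37% of all genes called higher and 1.21% called lower. The shares without baseline butyrate replicate 3 are given with the members and with the inhibitors. In CTL mice, 3 of 4 injury-induced keratinocyte markers rose in lesional skin, led by *Krt6b* (log2 fold change 6.38 ± 0.65), and their sum went from 1167 and 1018 to 8548 and 5585 CPM. All 6 tested neutrophil markers rose, led by *S100a8* (8.72 ± 0.87), from sums of 13.6 and 17.3 CPM to 2651 and 1647 CPM, and to 772 and 348 CPM in lesional butyrate skin. Most of the lesional CTL sums came from *S100a8* (1000 and 579 CPM) and *S100a9* (1466 and 836 CPM). The other listed markers were far lower there, among them *Retnlg* (5.60 and 12.6 CPM) and *Mmp8* (5.98 and 17.7 CPM). *Ly6g* was at 0.107 and 0.231 CPM there and was not tested. *Retnlg* and *Mmp8* met the filter through lesional libraries, where they were high, so the direction of their change was tied to the filter. Of 7 suprabasal keratinocyte markers 1 fell over all 8 libraries, *Krt2*, which was at 1.11 and 0.944 CPM in baseline CTL skin. In the test without baseline butyrate replicate 3, 6 of the 7 fell, among them *Lor* (by 2.41 ± 0.25 on the log2 scale) and *Krt10* (by 2.43 ± 0.36). Their sum was 16116 and 15248 CPM in baseline CTL, 2828 and 4412 CPM in lesional CTL and 13199 and 10298 CPM in lesional butyrate skin. No tested marker of basal keratinocytes (7), hair follicle (11), sebaceous gland (7), fibroblasts (6) or skeletal muscle (7) was called in that comparison over all 8 libraries. With baseline butyrate replicate 3 left out, 4 muscle markers were called lower, 1 basal marker lower (*Krt15*), 2 sebaceous markers higher and 1 lower, 2 hair follicle markers higher and 1 lower, and no fibroblast marker. In that test all 4 injury-induced and all 6 neutrophil markers were called higher. In lesional skin with butyrate it called 3 suprabasal (*Krt1*, *Krt10* and *Lor*), 1 basal and 1 sebaceous marker higher, and 2 neutrophil and 1 injury-induced marker lower, where the test over 8 libraries called none. Muscle markers summed to 37155 and 45166 CPM in baseline CTL and 15945 and 22431 CPM in lesional CTL skin. The part of these cells in the changes of the members was not tested.

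**Figure D5:**
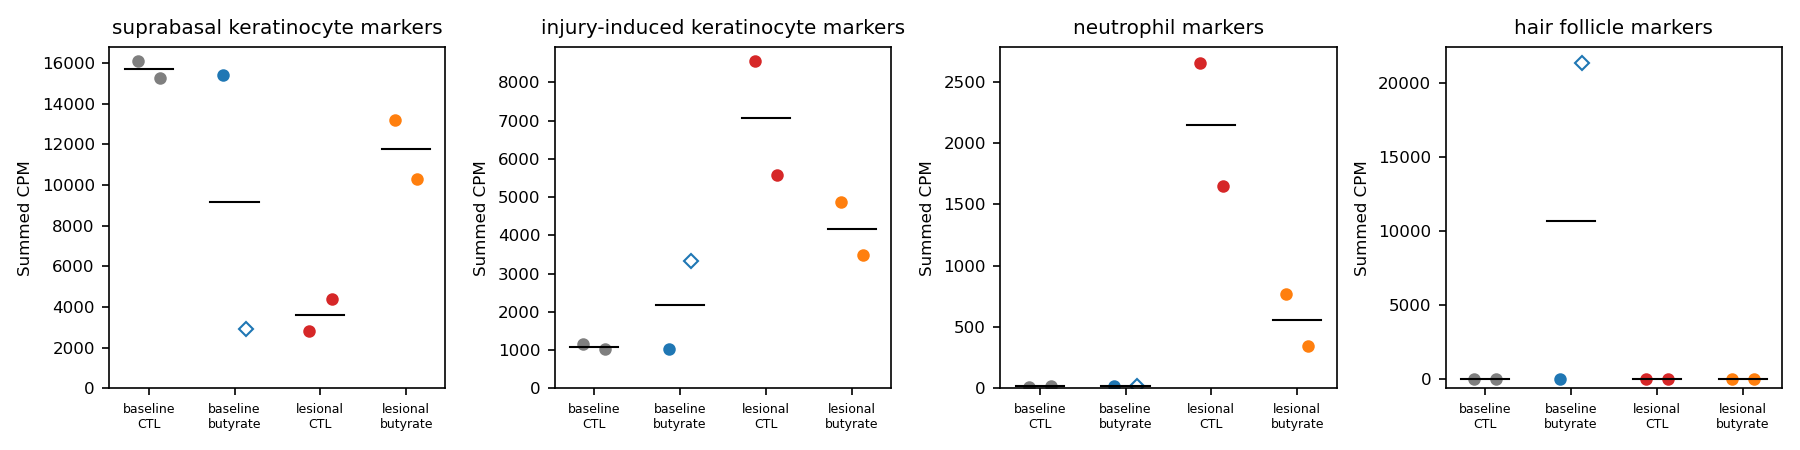
Summed CPM of 4 marker lists in each library, on linear axes, by group, with a bar at the mean of 2 mice. Neutrophil markers sum to 2651 and 1647 CPM in lesional CTL skin, suprabasal markers to 2828 and 4412 CPM there, and hair follicle markers to 21348 CPM in baseline butyrate replicate 3 alone.

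Among the inhibitors other than *Spink5*, 9 were tested and 4 called in lesional against baseline CTL skin, 3 higher and 1 lower. That was beside 2.37% of all genes called higher and 1.21% called lower. The shares in that comparison without baseline butyrate replicate 3 are given above with the members. *Serpina12* encodes vaspin, an inhibitor of KLK7. It was at 135 and 119 CPM in baseline and 3.20 and 7.75 CPM in lesional CTL skin and fell by 4.52 ± 0.90 on the log2 scale (adjusted p = 0.0708). In lesional butyrate skin it was at 51.0 and 30.8 CPM, above both lesional CTL mice, with a log2 difference of 2.89 ± 0.84 (adjusted p = 0.84). Without baseline butyrate replicate 3 that difference was called (2.88 ± 0.42, adjusted p = 0.0658), beside 0.332% of all genes called higher. *Slpi*, the gene of secretory leukocyte protease inhibitor, was at 0.778 and 1.05 CPM in baseline CTL, 17.6 and 15.5 CPM in lesional CTL and 6.59 and 5.30 CPM in lesional butyrate skin. It rose by 4.17 ± 0.49 in lesional CTL skin (adjusted p = 0.0294). It was lower with butyrate by the test without that library (-1.48 ± 0.19, adjusted p = 0.0527, beside 0.886% of all genes called lower) and not by the test with it (adjusted p = 0.838). *Wfdc12* met the filter through lesional libraries, where it was high, so the direction of its change was tied to the filter. It (2.25 ± 0.38) and *Serpina3n* (2.15 ± 0.31) rose in lesional CTL skin as well. Without that library 5 of the 9 were called there, with *Wfdc5* lower (-1.32 ± 0.26, adjusted p = 0.0172).

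Of 6 tested genes for corneodesmosome substrates and the protease receptor, 1 was called in lesional against baseline CTL skin, beside 1.21% of all genes called lower. It was *Dsg1a*, a desmosomal cadherin, which fell by 1.24 ± 0.26 on the log2 scale (adjusted p = 0.0738). None of the 6 was called in lesional skin with butyrate. There *Cdsn*, the gene of corneodesmosin, was at 701 and 507 CPM against 259 and 306 CPM (1.10 ± 0.27, adjusted p = 0.737). Of 5 tested genes related to matriptase, which include its partner prostasin (*Prss8*), 0 were called in either comparison. After baseline butyrate replicate 3 was left out, 7 were tested and 1 was called in lesional CTL skin, the membrane protease gene *Tmprss11e*, which rose from 4.89 and 2.00 to 9.55 and 10.1 CPM (log2 fold change 1.51 ± 0.44, adjusted p = 0.05). *Tmprss11f*, a membrane serine protease gene, was at 54.6 and 53.0 CPM in baseline CTL, 25.2 and 33.4 CPM in lesional CTL and 85.2 and 50.3 CPM in lesional butyrate skin. Of 8 tested other proteases of cornification 0 were called in either comparison, and the retroviral-like protease gene *Asprv1* was at 1749 and 1016 CPM in lesional butyrate against 682 and 655 CPM in lesional CTL skin (1.05 ± 0.28, adjusted p = 0.791). Of 4 tested Kazal-type inhibitor genes other than *Spink5*, 1 was called in lesional CTL skin, beside 1.21% of all genes called lower. It was *Spink2*, which fell by 1.70 ± 0.37 on the log2 scale (adjusted p = 0.0846). *Spink4* was called higher as well without baseline butyrate replicate 3 (1.68 ± 0.48, adjusted p = 0.045). *Spink4* met the filter through lesional libraries, where it was high, so the direction of its change was tied to the filter. The calls among the corneodesmosome genes and the other proteases in these 2 comparisons numbered the same without baseline butyrate replicate 3.

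Of 18 other genes of the kallikrein locus, 3 passed the filter and 1 rose in lesional CTL skin, beside 2.37% of all genes called higher. *Klk12*, which lies between *Klk13* and *Klk11*, was at 0.389 and 0.222 CPM in baseline and at 5.50 and 4.48 CPM in lesional CTL skin (log2 fold change 4.00 ± 0.57, adjusted p = 0.0374). *Klk9*, which lies between *Klk10* and *Klk8*, was at 25.1 and 20.0 CPM and at 119 and 89.3 CPM (2.21 ± 0.64, adjusted p = 0.15), and without baseline butyrate replicate 3 it was called (adjusted p = 0.00991). *Klk1* was at 0.167 CPM in both baseline CTL mice and at 3.04 and 1.29 CPM in lesional CTL skin (log2 difference 3.64 ± 0.67 without that library). *Klk4* was at 0 in both baseline CTL mice and at 0.641 and 0.277 CPM in lesional CTL skin. It passed the filter only without that library. *Klk1*, *Klk4* and *Klk12* met the filter through lesional libraries, where they were high, so the direction of their change was tied to the filter.

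The genes whose centred log2 CPM over the 8 libraries lay closest to a member were, for *Spink5*, *Cdsn* (root mean square difference 0.08), *Ano9* (0.10) and *Pla2g2f* (0.13), out of 12319 candidate genes. For *Klk7* they were *Ttc22* (0.13), *Cry1* (0.15) and *Tuba1c* (0.15), and for *Klk5* they were *Bbox1* (0.14), *Rgs11* (0.18) and *Gramd1c* (0.18). For comparison, the SD of the member itself over the libraries was 0.43 for *Spink5*, 0.64 for *Klk7* and 0.53 for *Klk5*, on the same log2 scale.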

How the data were processed

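Bulk RNA-seq libraries were made from snap-frozen whole skin with a TruSeq RNA kit. The authors aligned reads with STAR (version 2.5.2) to GRCm38 and counted them per gene with featureCounts, and the deposited table holds raw counts of 22740 protein-coding genes, with reads of one strand setting. Samples were grouped by the labels' treatment and disease state. From the counts, TMM-scaled CPM and edgeR (version 4.0.16) quasi-likelihood tests were computed in R 4.3.3, over all 8 libraries with 1 mean per group, after a filter with a minimum count of 10. Genes were called at a Benjamini-Hochberg adjusted p below 0.1 over all genes tested and a fold change above 2. Library depth of 18004136 to 21085544 counts puts the level of 3 counts at 0.138 to 0.169 CPM. Replicates were separate mice. Replicate pairs differed by more than sampling noise (median chi-square over genes 1.62 to 28.0). The members and the lists of related and marker genes were chosen with earlier results of these data known. Every member was named; from other lists, called genes with the largest change were named, at most 4, or else the 2 with the smallest unadjusted p, with the lesional comparisons described first. *Klk1*, *Klk4*, *Klk9* and genes called only without 1 library were named after their values were seen. Levels between genes were set per kilobase of the union of GENCODE exons. RefSeq promoter windows for GRCm38.p6 were searched for 3 motifs. Alternatives were other normalization, filter, prior count and thresholds, limma-voom (limma 3.58.1), DESeq2 (version 1.42.0), fewer groups in the fit and each library left out. The scripts for the tests were tested on simulated data.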

Additional observations from a re-analysis of the deposited data

Results flagged for a closer look

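*Klk11* drew attention because both butyrate mice lay under both CTL mice in baseline skin (42.7 and 16.1 against 53.7 and 48.5 CPM) and above both in lesional skin (128 and 68.7 against 62.6 and 64.0 CPM). The difference of the 2 butyrate effects was 1.43 on the log2 scale, and edgeR's test of that difference gave an adjusted p of 0.84. Without baseline butyrate replicate 3 the difference was 0.89 ± 0.44 (adjusted p = 0.631).

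*Spink5* drew attention because both lesional values lay under both baseline values in the CTL groups and above both in the butyrate groups, all from separate mice. The difference of the 2 lesional effects was 1.34 on the log2 scale (SE 0.42, adjusted p = 0.84 by edgeR), and 1.07 ± 0.36 (adjusted p = 0.514) without baseline butyrate replicate 3.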

How the results depend on the processing

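No paired analysis was possible because fewer than 2 replicate numbers of the labels recur in both groups of any comparison. Calls of members in lesional against baseline CTL skin numbered 3 over all libraries, 1 at an adjusted p below 0.05 and 6 with DESeq2, with only the groups compared or with no baseline butyrate libraries. In butyrate mice, DESeq2 called 4 members against 0, and *Klk5* turned from -0.01 to 0.0025 with RLE normalization and 0.0023 with DESeq2. Leaving out 1 library at a time moved the count in CTL mice between 0 and 6: it was 6 without either baseline butyrate library and 0 without any of the other 6 libraries. The count ran from 0 to 7 in butyrate mice, for butyrate in baseline skin and for the difference of the butyrate effects, with 7 only without baseline butyrate replicate 1, and was 0 each time for butyrate in lesional skin. In the comparison of lesional with baseline CTL skin no member reversed. The directions that reversed did so in these ranges of log2 change. For butyrate in baseline skin the ranges were -0.081 to 2.64 for *Klk6*, -0.024 to 1.15 for *Klk7*, -1.71 to 0.15 for *Klk8*, -0.35 to 1.29 for *Klk10*, -0.037 to 1.93 for *Klk13*, -0.84 to 0.46 for *Klk14* and -0.066 to 1.69 for *St14*. For butyrate in lesional skin they were -0.46 to 0.30 for *Klk6*, -0.15 to 0.59 for *Klk7*, -0.43 to 0.44 for *Klk8* and -1.06 to 0.66 for *Klk14*. For lesional against baseline skin in butyrate mice they were -0.56 to 0.57 for *Klk5* and -1.27 to 0.48 for *St14*. Counts over all genes ran from 0 to 1936 in lesional against baseline CTL skin when 1 library was left out (543 with all), 0 to 2990 in butyrate mice (53), 0 to 191 for butyrate in lesional skin (0), 0 to 3777 for butyrate in baseline skin (0) and 0 to 3275 for the difference of the butyrate effects (0). DESeq2 called 1093, 698, 124, 58 and 37 genes in the same order, and fits of only the groups compared called 1918 in CTL mice and 25 for butyrate in lesional skin. The causes of these moves were not tested, and each fit with 1 library left out also had fewer libraries. Of the log2 changes of single members under all alternatives, 503 kept direction and side of the threshold, 38 passed it newly, 19 no longer passed it and 19 reversed. With 2 mice a group, a difference that was not called is not shown to be absent.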
